A study of Mus musculus with 8 samples.

Results

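The 10 genes described here are the chamber genes of the heart, the transcripts whose levels tell atrial from ventricular muscle. They were taken by symbol from a list of members fixed for this purpose, and all 10 were found among the 27179 genes of the deposited table. The list holds the myosin heavy chains Myh6 and Myh7, the light chains Myl2, Myl3, Myl4 and Myl7, the calcium pump inhibitor Sln, the natriuretic peptides Nppa and Nppb, and the growth factor Bmp10. The members were chosen by name with their measured levels in these 8 libraries, above all the contrast of FFPE with frozen heart, in view, so the values of the 10 genes are given as a description, with no test.

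Total RNA of mouse heart, brain, kidney and liver was sequenced from organs that had been fixed in 10% formalin and set in paraffin (FFPE) and from flash-frozen organs, with 1 library for each of the 8 combinations. Paraffin was removed from the FFPE samples by a protocol of the submitting laboratory, and RNA was taken up in Trizol and sheared by PIXUL sonication. No genotype, strain, age, sex or treatment other than the way of keeping the organ is given in the labels, nor whether animals were pooled, nor which part of the heart was taken. FFPE heart gave 15848065 reads assigned to genes and frozen heart 20526813, and the other 6 libraries gave 10180972 to 18729510.

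Each chamber of the heart builds its contractile filament from its own set of myosin light chains. In rodents the adult ventricle uses Myl2 as regulatory and Myl3 as essential light chain, while the atrium uses Myl7 and Myl4. Myh6, the fast alpha heavy chain, dominates both chambers of the adult mouse, and Myh7, the slow beta chain, is the fetal and load-responsive form. Atrial muscle also makes sarcolipin, encoded by Sln, which inhibits the calcium pump SERCA as phospholamban does in the ventricle, stores the natriuretic peptide of Nppa in granules, and secretes BMP10, a ligand of the endothelial receptor ALK1.

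Of these 10 genes, FFPE heart held the transcripts of both chambers, and frozen heart held those of the ventricle with hardly any of the 5 atrial ones. This does not extend to all atrial genes. Of 12 further atrial genes listed below, 2 had 0 reads in frozen heart, while Kcnj5 had 398 and Tbx5 had 117. Myl7, Sln, Bmp10, Myl4 and Nppa had 536 to 7173 reads in FFPE heart, whereas in frozen heart Myl7, Sln and Bmp10 had 0 reads, Myl4 had 5 and Nppa had 180. The 5 other genes differed by 1.2 log2 units or less between the libraries. Of the 10 genes, 5 were at least 2-fold higher in FFPE heart and 1 was at least 2-fold lower, where 13.7% of the 15819 genes above the level filter were higher and 5.54% lower by that much. The filter asked for more than 1 CPM (reads per 1e+06 reads of the scaled library total) in at least 2 of the 8 libraries. It passed 8 of the 10 genes and left out Myl7 and Sln, which were above 1 CPM in FFPE heart only.

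**Figure D1:**
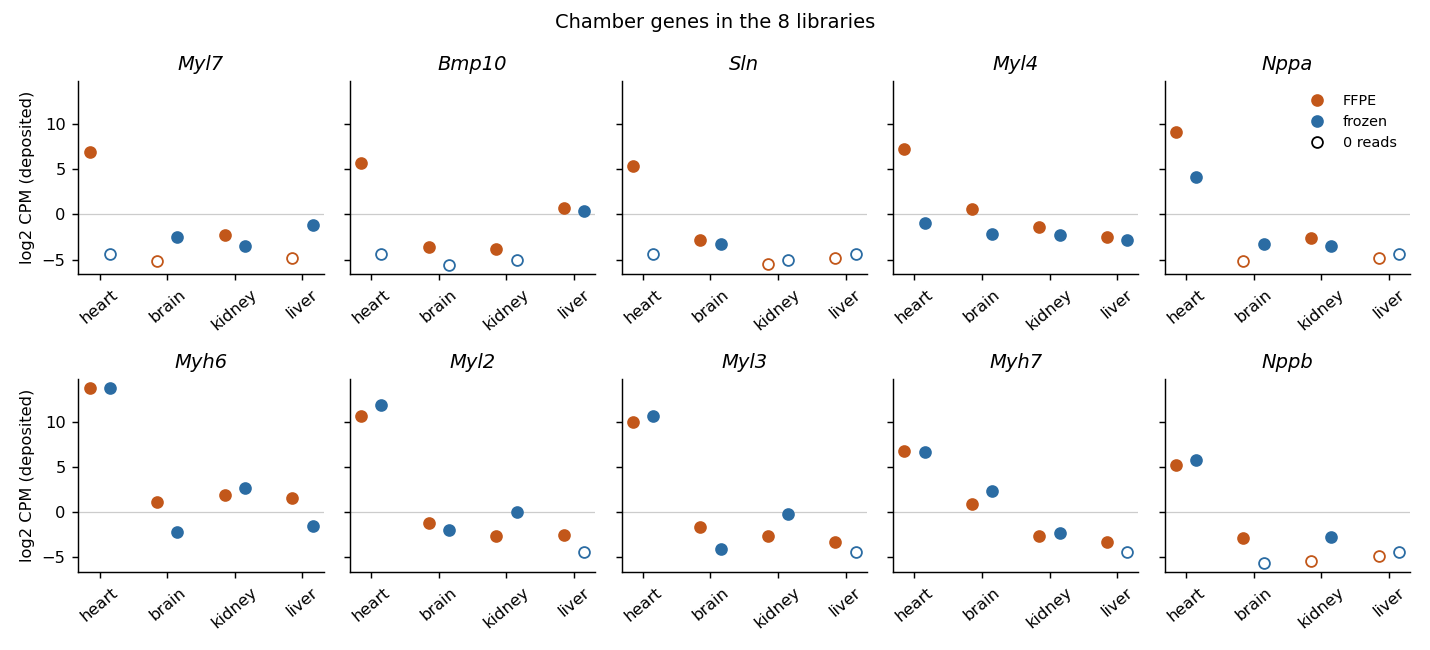
Deposited log2 CPM (vertical axis) of the 10 chamber genes in heart, brain, kidney and liver, with 1 point per library, FFPE left of frozen, and open points for 0 reads. In heart the upper row is high in FFPE and low in frozen tissue, with Nppa at 9.09 in FFPE and 4.14 in frozen heart, and the lower row is high in both.

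Myh6 was the most abundant of the 10 genes in reads, with 186885 reads (14171 CPM) in FFPE heart and 146976 reads (14325 CPM) in frozen heart. The libraries differed by −0.02 log2 units, a ratio of 0.989 with a 95% exact interval of 0.982 to 0.996 that covers counting error only, as do all such intervals below. The scaling of the libraries set the sign of this difference, which was 0.72 on plain read totals and 0.23 after quantile normalization. With the trend of the heart difference with transcript length and GC content removed it was −0.63. Myh6 spans chr14:54941921-54966927 on the minus strand (GRCm38), and Myh7 follows at chr14:54970684-54994626, with 3757 bases between them.

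Myh7 had 1434 reads (108.7 CPM) in FFPE heart and 1017 reads (99.1 CPM) in frozen heart, a log2 difference of 0.13. The difference was 0.87 on plain read totals and −0.48 with the length and GC trend removed. Per transcript length Myh7 made up 0.747% of the 2 heavy chains in FFPE heart (95% interval 0.709 to 0.787) and 0.674% in frozen heart (0.634 to 0.717). Both hearts had a beta chain level under 1% of the heavy chain pool. Of the 50-base words of the Myh7 transcript 22.2% also occur in Myh6, so reads can be split between the genes and the low Myh7 share is uncertain. Mhrt, a long non-coding RNA on the opposite strand that overlaps Myh7, had 1047 reads in FFPE heart and 389 in frozen heart. The strand setting of the counting is not given, so reads of Mhrt and Myh7 cannot be told apart where they overlap.

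Myl2, the ventricular regulatory light chain, had 20646 reads (1566 CPM) in FFPE heart and 37011 reads (3607 CPM) in frozen heart. It was lower in FFPE heart by 1.2 log2 units, a ratio of 0.434 (95% interval 0.427 to 0.441), and lay between −0.46 and −1.27 under the 7 other scalings and corrections tried. The gene lies at chr5:122100951-122113472 on the plus strand. Myl3, the ventricular essential light chain, had 13352 reads (1012 CPM) in FFPE heart and 16335 reads (1592 CPM) in frozen heart, a log2 difference of −0.65 that turned to 0.08 on plain read totals. The trend of the heart difference with transcript length and GC content was −0.58 at Myl2 and −0.41 at Myl3, whose transcripts have 889 and 937 bases. With that trend removed the differences were −0.62 and −0.24.

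Myl7, the atrial regulatory light chain, had 1590 reads (120.6 CPM) in FFPE heart and 0 reads in frozen heart. Set against a limit of 3 reads per library, the level in FFPE heart was at least 412-fold higher. Myl7 lies at chr11:5896637-5898782 on the minus strand, and no other annotated gene overlaps it. In brain, kidney and liver it had 4 reads or fewer per library, and FFPE heart was the only library of the 8 with more.

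Myl4, the atrial essential light chain, had 1959 reads (148.5 CPM) in FFPE heart and 5 reads (0.487 CPM) in frozen heart. The ratio was 305-fold (95% interval 130 to 940). Its gene spans chr11:104550663-104595753 on the plus strand and is overlapped by 4 annotated genes or pseudogenes on the minus strand. FFPE brain had 27 reads of Myl4 (1.51 CPM), more than frozen heart, and frozen brain had 5.

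Sln had 536 reads (40.6 CPM) in FFPE heart and 0 reads in frozen heart, at least 139-fold higher on the limit of 3 reads. The gene, at chr9:53850164-53854560 on the plus strand, had 2 reads in each brain library and 0 in kidney and liver. Pln, which encodes phospholamban, another SERCA inhibitor, had 19501 reads in FFPE heart and 21917 in frozen heart. No read of Sln was found in the frozen heart library, in which Pln was abundant.

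Nppa encodes the precursor of atrial natriuretic peptide. It had 7173 reads (543.9 CPM) in FFPE heart and 180 reads (17.5 CPM) in frozen heart, a 31.0-fold ratio (95% interval 26.7 to 36.1). It was the only one of the 5 atrial transcripts with more than 5 reads in frozen heart. Nppb, which encodes the B-type peptide and lies 13517 bases before Nppa on the plus strand of chromosome 4, had 486 reads (36.9 CPM) in FFPE heart and 559 reads (54.5 CPM) in frozen heart. Its log2 difference was −0.56, and it was 0.17 on plain read totals and 0.11 with the length and GC trend removed. There were 1476 Nppa reads per 100 Nppb reads in FFPE heart (95% interval 1346 to 1621) and 32.2 in frozen heart (27.1 to 38.2), so the order of the neighbouring genes differed between the libraries. An annotated antisense gene, Gm13054, overlaps Nppa at chr4:148000722-148002079.

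Bmp10 had 706 reads (53.5 CPM) in FFPE heart and 0 reads in frozen heart, at least 183-fold higher on the limit of 3 reads. The gene lies at chr6:87428994-87437677 on the plus strand with no overlapping gene. At its transcript length of 4490 bases the length and GC trend was 0.02, and the difference of 10.10 log2 units on the deposited scale was 10.09 without it. These log2 values of genes with 0 reads depend on the 0.5 reads added to each count and are no bound. The median log2 difference of Myl4, Myl7, Sln, Nppa and Bmp10 was 9.71, or 7.52 with genes at 0 reads set at 3, and that of the other 5 genes was −0.56, beside 0.07 over all genes above the filter.

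**Figure D2:**
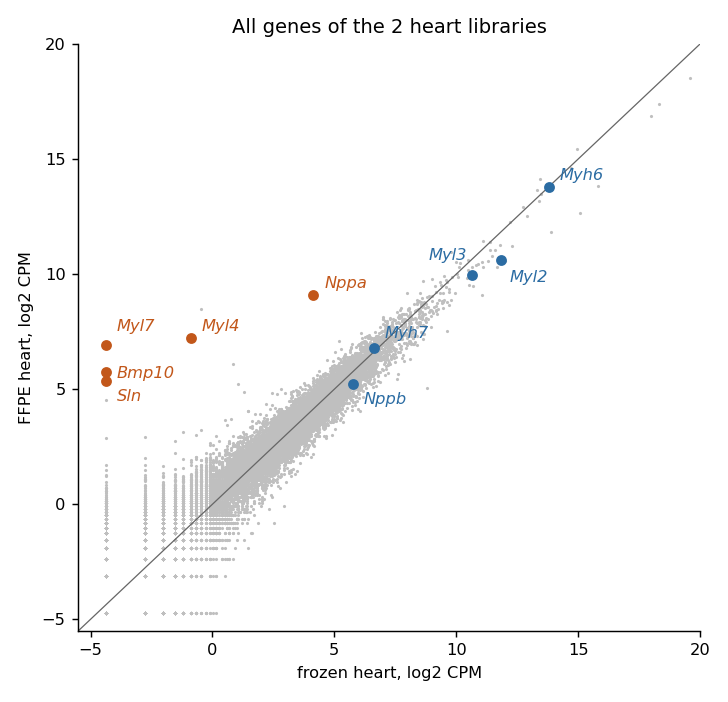
Log2 CPM of every gene in FFPE heart (vertical axis) against frozen heart (horizontal axis), with the line of equal values. Myl7, Bmp10 and Sln stand at the column of 0 frozen reads at 6.91, 5.74 and 5.35 in FFPE heart, and Myh6, Myh7 and Nppb lie on or near the line.

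All 5 atrial members were at least 16-fold higher in FFPE heart, as were 0.398% of the genes above the filter. Nothing is read from that share, since the members were chosen with this contrast in view.

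**Figure D3:**
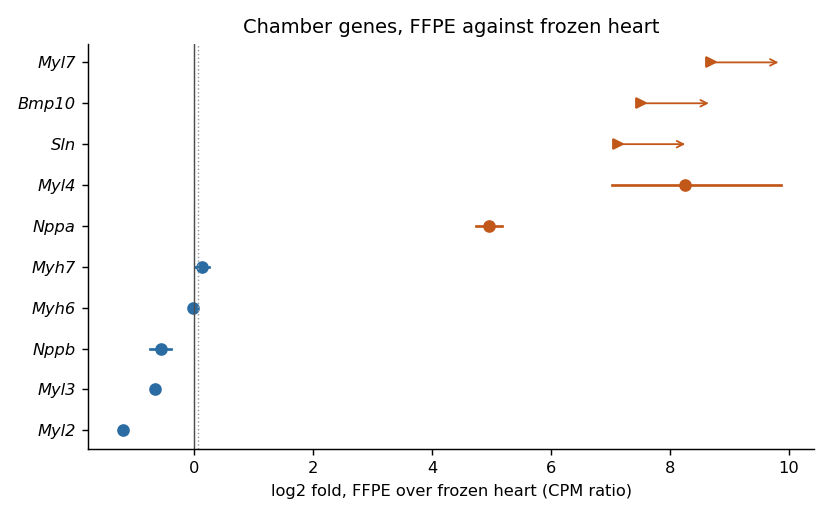
Log2 ratio of CPM in FFPE over frozen heart for each chamber gene, with 95% exact counting intervals as bars. For genes with 0 frozen reads an arrow starts at the ratio for 3 assumed reads, which lies above the start of the 95% interval. The dotted line marks the median of 0.07 over all genes above the filter, and the 5 atrial genes stand apart on the right with Nppa at 31.0-fold.

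The sequences before the start sites of Myl7, Bmp10 and Nppa are shown because these 3 genes were far higher in FFPE heart and their annotated starts are the same in RefSeq and GENCODE. Each is the 250 bases before the start, from RefSeq (GRCm38.p6), read 5′ to 3′ on the strand of the gene. Capitals mark matches on either strand. The motif of GATA factors was searched as GATAA, that of T-box factors as AGGTGT, that of the NK2 class as CAAGTG and that of TEAD factors as CATTCC. The TATA element was searched as TATAAA, and the binding element of SRF as the CArG box.
Myl7, chr11:5898783-5899032, minus strand: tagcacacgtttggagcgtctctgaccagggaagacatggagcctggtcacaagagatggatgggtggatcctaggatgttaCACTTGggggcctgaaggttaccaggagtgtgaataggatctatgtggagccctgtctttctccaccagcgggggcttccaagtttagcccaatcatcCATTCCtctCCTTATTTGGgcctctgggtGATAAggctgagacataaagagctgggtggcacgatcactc
Bmp10, chr6:87428744-87428993, plus strand: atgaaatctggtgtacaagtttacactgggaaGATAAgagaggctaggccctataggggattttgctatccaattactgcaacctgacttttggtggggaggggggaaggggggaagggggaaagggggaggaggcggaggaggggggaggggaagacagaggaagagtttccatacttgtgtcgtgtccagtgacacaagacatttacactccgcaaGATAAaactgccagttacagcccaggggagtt
Nppa, chr4:148000472-148000721, plus strand: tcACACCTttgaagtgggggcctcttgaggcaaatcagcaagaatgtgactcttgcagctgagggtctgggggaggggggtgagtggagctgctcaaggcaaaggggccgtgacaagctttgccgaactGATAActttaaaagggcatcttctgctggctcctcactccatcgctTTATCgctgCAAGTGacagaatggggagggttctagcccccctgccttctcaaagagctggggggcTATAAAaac

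All 3 windows held GATAA, the core that 22.6% of the 32851 RefSeq promoter windows of that length hold. In Myl7 it begins 41 bases before the start, in Bmp10 at 218 and 32, and in Nppa at 121 and 75. Myl7 and Nppa each held CAAGTG (11.6% of windows), at 168 and 66 bases. Nppa alone of the 3 held AGGTGT (11.8%) and TATAAA (12.4%), and Myl7 alone held CATTCC (12.6%) and a CArG box (1.47%). None of the motifs overlapped another. These matches describe the letters of the windows.

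Ratios within a library do not depend on how libraries are scaled. There were 7.70 Myl7 reads per 100 Myl2 reads in FFPE heart (95% interval 7.31 to 8.10) and 0 in frozen heart, where the limit of 3 reads stands for 0.00811. Myl4 stood at 14.7 reads per 100 Myl3 reads in FFPE heart (14.0 to 15.4) and at 0.0306 in frozen heart (0.00994 to 0.0714). For Sln against Pln the values were 2.75 in FFPE heart and 0 in frozen heart, with a limit of 0.0137. Each of the 3 pairs sets an atrial protein against the one that takes its place in the ventricle, and in each the atrial member had the higher share in FFPE heart.

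Per transcript length, Myl7 made up 10.4% of Myl7 and Myl2 together in FFPE heart (95% interval 9.93 to 10.9), and Myl4 12.7% of Myl4 and Myl3 together (12.2 to 13.3). The Myl4 share was above the Myl7 share by more than counting error. The shares also depend on the transcript lengths used, which the intervals do not cover. The order turns on the partners as well, since Myl7 itself was above Myl4 in FFPE heart (204 and 158 CPM per kilobase). In frozen heart the Myl7 share was 0%, with a limit of 0.0122%, and the Myl4 share was 0.0304% (0.00987 to 0.0709). In bulk tissue fewer cells of a type and less RNA per cell cannot be told apart.

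Against Myh6, which both chambers use, Nppa had 3.84 reads per 100 in FFPE heart (3.75 to 3.93) and 0.122 in frozen heart (0.105 to 0.142). Bmp10 had 0.378 reads per 100 Myh6 reads in FFPE heart and 0 in frozen heart, with a limit of 0.00204. Myh7 had 0.767 in FFPE heart and 0.692 in frozen heart.

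**Figure D4:**
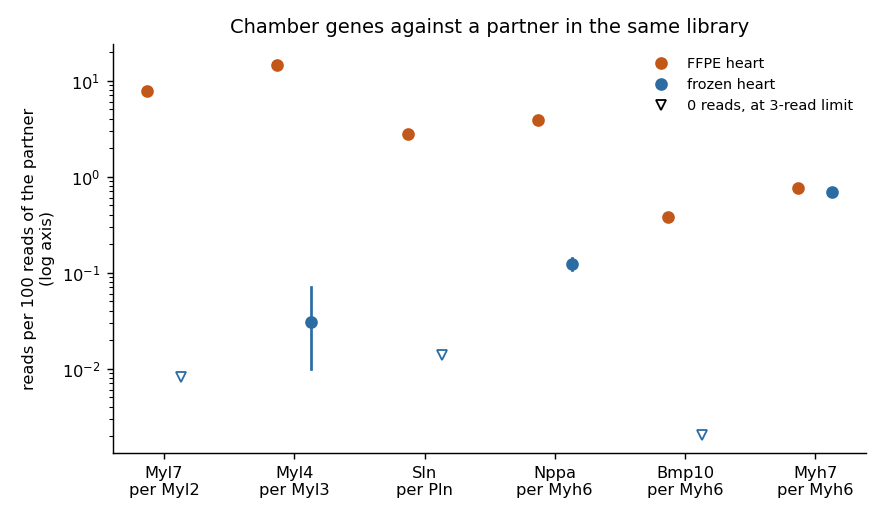
Reads of 6 chamber genes per 100 reads of a partner gene in the same library (log axis), FFPE heart left of frozen heart, with 95% exact counting intervals and open triangles at the limit of 3 reads. Atrial genes lie higher in FFPE heart, with Myl7 at 7.70 per 100 Myl2 reads, and Myh7 per 100 Myh6 reads is nearly level at 0.767 and 0.692.

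The order of the 10 genes by level per length (CPM per kilobase of transcript) differed between the hearts. In FFPE heart it ran Myh6 (2318), Myl2 (1761), Myl3 (1081), Nppa (629), Myl7 (204), Myl4 (158), Nppb (47.2), Sln (30.8), Myh7 (17.5) and Bmp10 (11.9). In frozen heart it ran Myl2 (4058), Myh6 (2343), Myl3 (1699), Nppb (69.8), Nppa (20.3), Myh7 (15.9) and Myl4 (0.517), with Myl7, Sln and Bmp10 at 0. Transcript lengths are those of the longest coding transcript in GENCODE M21, and the order depends on that choice of transcript, for neighbours such as Myl7 and Myl4 in FFPE heart above all.

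Outside the heart the 10 genes together had 21 to 150 reads per library, against 234767 in FFPE heart and 202083 in frozen heart. In FFPE tissue all 10 were above 1 CPM in heart and at least 8-fold above every other organ, a level that 1.17% of all genes reached. In frozen tissue 6 of the 10 were, where 1.18% of all genes were. Myl4, Myl7, Sln and Bmp10 were the 4 that were not. Because the levels in all 8 libraries were in view when the genes were listed, nothing is read from these counts.

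Each member had reads in another organ beyond the share seen for Mb, in some library. Mb encodes the muscle oxygen store myoglobin, and its level in brain, kidney and liver was 0 to 0.0182% of that in the heart library of the same preparation. Myh6 reached 0.0272% of the heart level in FFPE kidney (85 reads) and 0.0437% in frozen kidney (107 reads). In frozen kidney Myl3 reached 0.0515% (14 reads) and Myl2 0.0276% (17 reads), and the highest share of Mb was also there. In FFPE brain Myl3 was at 0.0276% (5 reads) and Myl2 at 0.0250% (7 reads). Myl4, Myl7, Sln, Nppa and Nppb passed the Mb share on 27 reads or fewer per library. Myh7 reached 1.69% in FFPE brain (33 reads) and 5.0% in frozen brain (125 reads), with 3 reads or fewer in each kidney and liver library. Bmp10 had 24 reads (1.65 CPM) in FFPE liver and 13 reads (1.25 CPM) in frozen liver. In frozen tissue Bmp10 had reads in liver and in no other organ.

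Among genes that are not members, the 8 log2 values of Mybphl lay nearest to those of Myl7. Likeness was the Euclidean distance between the 8 values of 2 genes, each less its own mean. It was 5.01 for Mybphl, which encodes a myosin-binding protein of atrial muscle, against a median of 10.6 over all genes. Mybphl had 307 reads in FFPE heart and 0 in frozen heart, at least 79.6-fold higher. The next were Mlana (6.52), Gm11756 (6.52), Gm1123 (6.84) and Cilp2 (6.87), with 19, 10, 12 and 96 reads in FFPE heart and 0 in frozen heart. Of the members, Sln (4.81) and Myl4 (5.97) were nearest to Myl7.

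For Myl2 the nearest were Mb (2.76), the cardiac troponins Tnnt2 (3.31) and Tnni3 (3.33), the mitochondrial creatine kinase Ckmt2 (3.39) and Xirp2 (3.54), against a median of 16.7. Among the members, Myl3 (1.86) and Myh6 (3.91) lay close to Myl2, and Myl7 lay at 15.2. With heart against the rest as the main pattern in 8 libraries, such distances mainly group genes by level in heart.

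Further genes of atrial muscle, of the ventricle and of the pathways around the members were taken from 9 lists of 109 genes, of which 97 passed the filter. For the lists, a gene with 0 reads in a heart library was set at the limit of 3 reads before it was counted as 2-fold apart. By that rule, chosen after seeing the data, 8.84% of all genes above the filter were higher in FFPE heart and 4.61% were lower. Of 11 tested atrial genes 6 were higher and 0 lower, with a median log2 difference of 1.04. Of these 6 genes 4 were still 2-fold higher after median centring and 4 with the length and GC trend removed. Tbx5, a transcription factor of atrial identity, had 396 reads (30.0 CPM) in FFPE heart and 117 (11.4 CPM) in frozen heart. Gja5, the atrial gap junction protein connexin 40, had 162 reads in FFPE heart and 55 in frozen heart. Among potassium channels of atrial muscle, Kcna5 had 431 reads in FFPE heart and 163 in frozen heart, and Kcnj3 had 580 in FFPE heart and 216 in frozen heart. All 4 were read in both hearts. Kcnj5, another potassium channel gene of the list, was within 2-fold, with 705 reads in FFPE heart and 398 in frozen heart. Kcna5 (2.06-fold) and Kcnj3 (2.09-fold) lay just past 2-fold and Gja5 at 2.29-fold, and with the trend removed the log2 differences were 0.83 for Kcna5, 1.07 for Kcnj3 and 0.93 for Gja5. The kinase gene Sbk2 had 84 reads in FFPE heart and 16 in frozen heart. Cacna1d, a calcium channel, had 102 reads in FFPE heart and 11 in frozen heart.

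None of the listed ventricular genes above the filter was 2-fold apart. The 9 tested ventricular genes had a median log2 difference of −0.19, from −0.53 for the ventricular repressor Irx4 (121 reads in FFPE heart and 136 in frozen heart) to 0.76 for the potassium channel Kcnd2 (316 reads in FFPE heart and 145 in frozen heart). Fhl2, a LIM protein, had 4995 reads in FFPE heart and 5588 in frozen heart. The 13 cardiac transcription factors had a median of 0.33 and none was 2-fold apart, with Tbx20 at 1494 reads in FFPE heart and 924 in frozen heart and Nkx2-5 at 243 in FFPE heart and 168 in frozen heart. Pacemaker and conduction genes had a median of 0.66 and 2 of 10 were 2-fold higher, and 1 of 10 with the trend removed. The calcium channel Cacna1g had 293 reads in FFPE heart and 108 in frozen heart. The pacemaker channel Hcn4 was within 2-fold, at 7.58 CPM in FFPE heart and 4.58 CPM in frozen heart. With the length and GC trend removed the medians were 0.93 for atrial, −0.11 for ventricular, 0.31 for conduction and 0.03 for transcription factor genes.

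Most genes that process or receive the members' signals were within 2-fold between the hearts. Of 9 tested genes of natriuretic peptide processing and signalling 0 were 2-fold apart (median 0.28). Corin, the protease that activates the Nppa precursor, had 1785 reads (135.4 CPM) in FFPE heart and 1129 (110.0 CPM) in frozen heart, and Npr3, the clearance receptor, had 391 in FFPE heart and 392 in frozen heart. In the BMP9 and BMP10 pathway 2 of 15 were 2-fold higher (median 0.17), beside 8.84% of all genes, and nothing particular to the list is read from it. These were Smad9, with 47 reads in FFPE heart and 5 in frozen heart, and Smad6, an inhibitory Smad, with 194 in FFPE heart and 75 in frozen heart. Smad6 was only just past 2-fold, at 2.01-fold, and its log2 difference was 0.53 with the trend removed. Acvrl1, the ALK1 receptor of BMP10, had 304 reads in FFPE heart and 188 in frozen heart, and its co-receptor Eng had 1452 in FFPE heart and 933 in frozen heart.

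Of 4 tested SERCA pump genes and regulators 1 was 2-fold higher (median 0.24), Atp2a1 with 28 reads in FFPE heart and 1 in frozen heart, while the cardiac pump Atp2a2 had 77598 in FFPE heart and 77584 in frozen heart. Other myosin chains and partners had a median of 0.48 and 5 of 16 were 2-fold higher, among them Myh4, a fast skeletal chain, with 98 reads in FFPE heart and 1 in frozen heart. Load and stress genes had a median of 0.18 and 3 of 10 were 2-fold higher. These were Acta1, skeletal actin, with 1282 reads in FFPE heart and 336 in frozen heart, Ccn2 (854 and 310) and Lgals3 (47 and 13). Ankrd1, a stress-responsive ankyrin repeat protein, was within 2-fold (1.55-fold), with 3472 reads in FFPE heart and 1748 in frozen heart. The counts of these lists stand beside 8.84% of all genes above the filter.

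**Figure D5:**
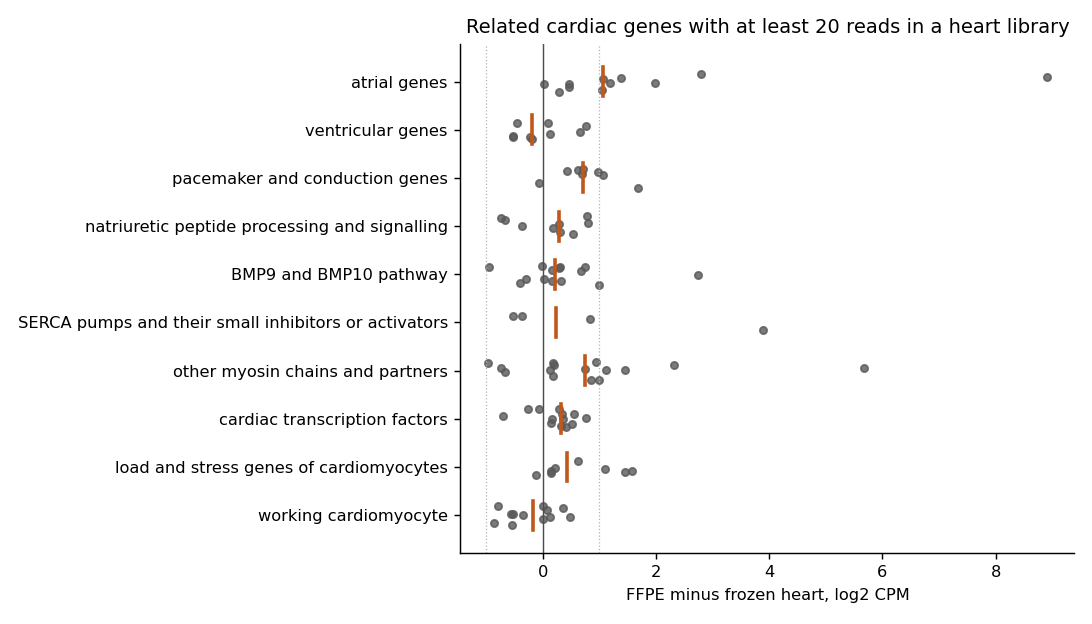
FFPE minus frozen heart difference in log2 CPM for related cardiac genes with at least 20 reads in a heart library, 1 point per gene, with an orange bar at the median of the plotted genes and dotted lines at 2-fold. Atrial genes run from near 0, with Kcnj5 at 0.46, to Mybphl at 8.90, a value on 0 frozen reads that is no bound. Ventricular and working cardiomyocyte genes lie around 0, with Kcnd2 at 0.76.

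Across organs most genes of these lists were higher in heart. They were listed for their part in heart muscle or in pathways around the members, with earlier results of these data known. For that reason nothing is read from the counts below. In limma's fit, with a term for organ and one for preservation, 67 of the 97 tested genes were higher in heart than in the mean of the other organs and 10 were lower, where 21.5% of all tested genes were higher and 28.7% lower (limma, Benjamini-Hochberg adjusted p under 0.05). The lower count was 5 without the frozen heart library. By list, the higher genes were 7 of 11 atrial, 8 of 9 ventricular, 9 of 10 conduction, 5 of 9 natriuretic, 6 of 15 BMP, 3 of 4 SERCA, 11 of 16 myosin, 11 of 13 transcription factor and 7 of 10 load and stress genes. Tbx5 rose by 8.52 ± 0.66 log2 units (SE; limma adjusted p = 1.79e-05) and Corin by 7.31 ± 0.39 (limma adjusted p = 2.75e-06). Nr2f2, a factor of atrial identity that veins and other organs also express, fell by 1.5 ± 0.24 (limma adjusted p = 0.00096), and Gdf2, which encodes BMP9 and is made by the liver, fell by 2.61 ± 0.69 (limma adjusted p = 0.0133). The spread behind these p-values is that between preparations of an organ, since there was 1 library per group.

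Over the 4 organs, limma called 0 of the 97 genes higher in FFPE than in frozen tissue and 1 lower, Myl6 (−0.76 ± 0.11 SE, limma adjusted p = 0.0167), where 1.2% of tested genes were higher and 2.18% lower. At an unadjusted p under 0.05 there were 20 higher and 3 lower, and limma's voom on the recovered reads called 7 higher, among them Tbx5, Kcnj3 and Cacna1d. Over all genes there were 190 higher and 345 lower calls. Without either brain library there was 1 call in each direction, and without any 1 of the kidney or liver libraries there were 0. The Myl6 call was lost without any 1 of those 6 libraries.

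The label heart held in both libraries on working cardiomyocyte markers. All 12 were read in both, and their median log2 difference was −0.17. Their summed level was 60445 CPM in FFPE heart and 50894 CPM in frozen heart. Most of these sums was Ttn, at 44118 CPM in FFPE heart and 31595 CPM in frozen heart. Actc1, cardiac actin, had 35328 reads in FFPE heart and 27534 in frozen heart.

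Low-level markers of skeletal muscle, nerve and lung epithelium summed higher in FFPE heart, on few reads. In every organ more genes had reads in the FFPE library, 18140 against 16098 in heart and 21002 against 18722 in brain. The numbers were 20349 and 17129 in kidney and 16725 and 15493 in liver, FFPE first. Of all genes above the filter 8.84% were 2-fold higher in FFPE heart, and the counts below were not set against genes of like level. The 8 skeletal muscle markers summed to 15.6 CPM in FFPE heart and 2.53 CPM in frozen heart, where Myh2 and Mylpf were at 0, and all 3 tested were 2-fold higher. Below the filter, Tnni2 had 10 reads in FFPE heart and 11 in frozen heart, and Actn3 had 9 and 5. The 7 nerve and Schwann cell markers summed to 12.7 CPM in FFPE heart and 3.41 CPM in frozen heart, where 4 were at 0, and 2 of 4 tested were 2-fold higher. The 6 lung epithelial markers summed to 1.90 CPM in FFPE heart and 0.0975 CPM in frozen heart, where 5 were at 0, and the 1 tested was 2-fold higher. The 7 adipocyte markers summed to 8.57 CPM in FFPE heart and 7.41 CPM in frozen heart, but nearly all of that was Cidea, which had 94 reads in FFPE heart and 75 in frozen heart. Without Cidea, a split made after its values were seen, the other 6 summed to 1.44 CPM in FFPE heart and 0.0975 CPM in frozen heart, where 5 were at 0. The part of these tissues in the differences of the chamber genes was not tested.

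Endothelial markers summed to 731 CPM in FFPE heart and 817 CPM in frozen heart, and endocardial and valve markers to 129.6 CPM in FFPE heart and 126.6 CPM in frozen heart, with 0 of 8 and 0 of 7 at least 2-fold apart. Fibroblast markers summed to 1143 CPM in FFPE heart and 1645 CPM in frozen heart, with 0 of 8 apart. Smooth muscle and pericyte markers summed to 620 CPM in FFPE heart and 665 CPM in frozen heart, with 3 of 8 higher, or 1 of 8 after median centring.

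The remaining lists had few tested genes. Leukocyte markers summed to 57.2 CPM in FFPE heart and 129.8 CPM in frozen heart, with 1 of 4 tested lower in FFPE heart. Red cell precursor genes summed to 1855 CPM in FFPE heart and 2085 CPM in frozen heart, with 0 of 4 apart. Epicardial markers summed to 10.5 CPM in FFPE heart and 9.55 CPM in frozen heart, with 1 of 4 tested lower.

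The hearts also differed in sex-linked reads, which were looked at after the values were seen. Xist, the RNA of the inactive X chromosome, had 4652 reads in FFPE heart and 7 in frozen heart, and the Y-linked gene Ddx3y had 233 in FFPE heart and 634 in frozen heart. Preparation, the animals used and the part of the heart taken all lie between the same 2 libraries and cannot be told apart in the differences above.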

How the data were processed

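The authors deposited 1 table of log2 values, with columns headed as counts, for 27179 genes in 8 libraries. HISAT2, featureCounts and limma, with genome mm10, are named without versions in the submitters' processing notes; no source used here gives the annotation, strand setting or scaling method. The deposited log2 values are log2 CPM with 0.5 reads added, on totals multiplied by a scaling factor (0.832 for FFPE heart, 0.500 for frozen heart), as worked out from the values. Whole reads were recovered for 100% of values within 1e-06, and the limit of 3 reads stands for 0.227 CPM in FFPE heart and 0.292 CPM in frozen heart.

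Folds between hearts are ratios of CPM with exact (Clopper-Pearson) conditional intervals, which cover counting error only, because without molecular identifiers PCR copies of a molecule are counted as separate reads. Organ and preservation tests used limma 3.58.1 (R 4.3.3), with the prior variance following mean level, on 15819 genes (3 residual degrees of freedom, prior 5.35), tested on simulated data. Each group has 1 library, so spread comes from the organ and preservation terms, and p-values measure only the spread between these samples, which may be technical. Transcript length and GC content came from GENCODE M21 (93.1% of tested genes), on the same build as the files.

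The members and lists were chosen with earlier results of these data known, and thresholds named so were chosen after values were seen. Of the list genes, Strit1 and Hbb-bt were not matched. Named genes were the members, the 4 most abundant of each list plus those 2-fold apart with 20 reads, and the 5 nearest to Myl7 and to Myl2; Hcn4, Nkx2-5, Irx4, Acvrl1, Nr2f2, Gdf2, Myh2, Mylpf, Myl6, Mhrt, Xist and Ddx3y were named after their values were seen. The RefSeq promoter table matched 9 of 10 members.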

Additional observations from a re-analysis of the deposited data

How the results depend on the processing

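The 5 atrial members stayed at least 2-fold higher in FFPE heart under all 7 alternatives for scaling, pseudocount, and length and GC content, with log2 differences of 4.65 to 12.01 for Myl7, 3.55 to 10.90 for Bmp10, 3.19 to 10.48 for Sln, 4.81 to 8.85 for Myl4 and 4.61 to 5.69 for Nppa. The plain read total raised the median of all tested genes by 0.74, removing rRNA and mitochondrial genes from the total by 0.15, and centring on cardiomyocyte markers (chosen after seeing the data) by 0.17. Genes at least 2-fold higher and lower in FFPE heart, 2170 and 876 as deposited, numbered 6127 and 270 on plain totals, 70 and 119 with log2(CPM + 5), and 4218 and 1559 without the filter, and 493 were lower with the length and GC trend removed. With log2(CPM + 5) the differences of the log2 ratios were 5.85 for Myl7 to Myl2, 5.46 for Myl4 to Myl3, 3.72 for Sln to Pln, 4.62 for Nppa to Myh6 and 3.56 for Bmp10 to Myh6. The Nppa ratio was 6.04 with the trend removed and 4.70 against summed cardiomyocyte markers, where Myh7 stood at −0.11 (0.15 to Myh6). For FFPE against frozen tissue across organs, genes higher and lower numbered 49 and 109 under quantile normalization, 114 and 211 with log2(CPM + 5), 572 and 835 with limma's voom, and 0 and 0 without an organ term; the cause was not tested. Among the 97 list genes, 1 was higher without a filter, 1 with the stricter filter and 7 with voom, and 0 were lower without an organ term. Leaving out 1 library at a time gave 0 to 129 higher and 0 to 268 lower genes for FFPE, 0 to 1 list genes lower in FFPE, and 5 to 10 list genes lower in heart. The fit pairs libraries by organ through its organ term, and the labels carry no replicate numbers to use as a further block. Depth limits the genes with 0 reads, for which bounds of 139-fold (Sln) to 412-fold (Myl7) are the most that 3 reads allow.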

Other observations

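Dkk3, a secreted protein of the Dickkopf family, was chosen after its values were seen. It had 897 reads in FFPE heart and 18 in frozen heart. In other organs it had 853 reads in FFPE brain and 413 in frozen brain, 252 in FFPE kidney and 201 in frozen kidney, and 26 in each liver library.

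Xist and the Y-linked genes, also chosen after their values were seen, were read together in every FFPE library and apart in the frozen ones. Xist had 4652, 9954, 15389 and 24213 reads in FFPE heart, brain, kidney and liver, and 7, 13170, 1 and 3 in the frozen libraries of the same organs. Ddx3y had 233, 224, 450 and 308 reads in the FFPE libraries and 634, 0, 525 and 639 in the frozen ones, and Eif2s3y, Kdm5d and Uty were also at 0 or 1 read in frozen brain. The labels do not give the animals behind each library.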
